A study of Caenorhabditis elegans with 3 samples.

Results

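Regions in which the chromatin remodeller LET-418 bound at closely spaced sites were taken from ChIP-seq of wild-type Caenorhabditis elegans larvae. Neighbouring peaks of the authors' combined peak list were joined where the start of one lay less than 1000 bp beyond the end of the previous one, chromosome I being left out, and joined regions of 5 or more peaks were kept. This gave 261 domains holding 1955 of the 7641 combined peaks on chromosomes II, III, IV, V and X (25.6%, 95% Wilson interval 24.6 to 26.6%). The other peaks fell into 1237 joined regions of 2 to 4 peaks (3099 peaks, 40.6%) and 2587 single peaks (33.9%), so the 261 domains were 261 of 4085 regions in all. Both ChIP samples came from strain N2, a wild-type genotype, as a population of both males and hermaphrodites at the L3 stage, grown at 20 °C. They were immunoprecipitated with SDQ3861, an affinity-purified rabbit polyclonal antibody raised against LET-418. The labels name 2 ChIP replicates and 1 input DNA library, which was not analysed here, and do not say whether the replicates came from separate cultures, so the spread between them may be technical.

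LET-418 is the worm counterpart of Mi-2, an ATPase of the CHD family that moves nucleosomes. It works in the NuRD complex, which joins nucleosome remodelling to histone deacetylation, and in the MEC complex. In the worm it is known for keeping germline genes silent in somatic tissue and for a role in vulval cell fates. Since chromatin came from whole larvae, a peak does not tell in which cells the protein was bound.

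Peak positions are on build WS220 and peaks were called with MACS, per the file headers. Outside chromosome I, the authors' deposited lists held 13326 peaks for replicate 1 and 8145 for replicate 2. No read counts are given, so the depth behind the lists is unknown. Each peak carries a score of the authors on a scale that is not stated. Scores are therefore compared only within a list. Percentiles are ranks within a replicate list, where 100.0 is the best, and values given as scores are those of the combined list as deposited, so a difference between them has no known unit. In the combined list the score has a ceiling of 9.03. Members were chosen by the positions of combined peaks, and the combined list was made from the same ChIP samples. All values below are therefore descriptions, without p-values, and intervals cover counting error only. Peak edges enter the joining rule, so that peak width is not free of it either.

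Most domains were short runs just past the minimum. Of the 261, 90 held 5 peaks, 47 held 6 and 35 held 7, and the median was 6 peaks (quartiles 5 and 9). A long tail reached 30 peaks. The 44 domains of 10 or more peaks held 595 of the 1955 domain peaks. Domain length had a median of 4022 bp (quartiles 3087 and 5573 bp) and ran from 1372 bp to 24524 bp, and 13 domains were longer than 10 kb. Together the domains spanned 1245 kb, which is 1.46% of the 85.1 Mb between the first base and the last peak on the 5 chromosomes. They held 31.2% of all bases under combined peaks.

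**Figure D1:**
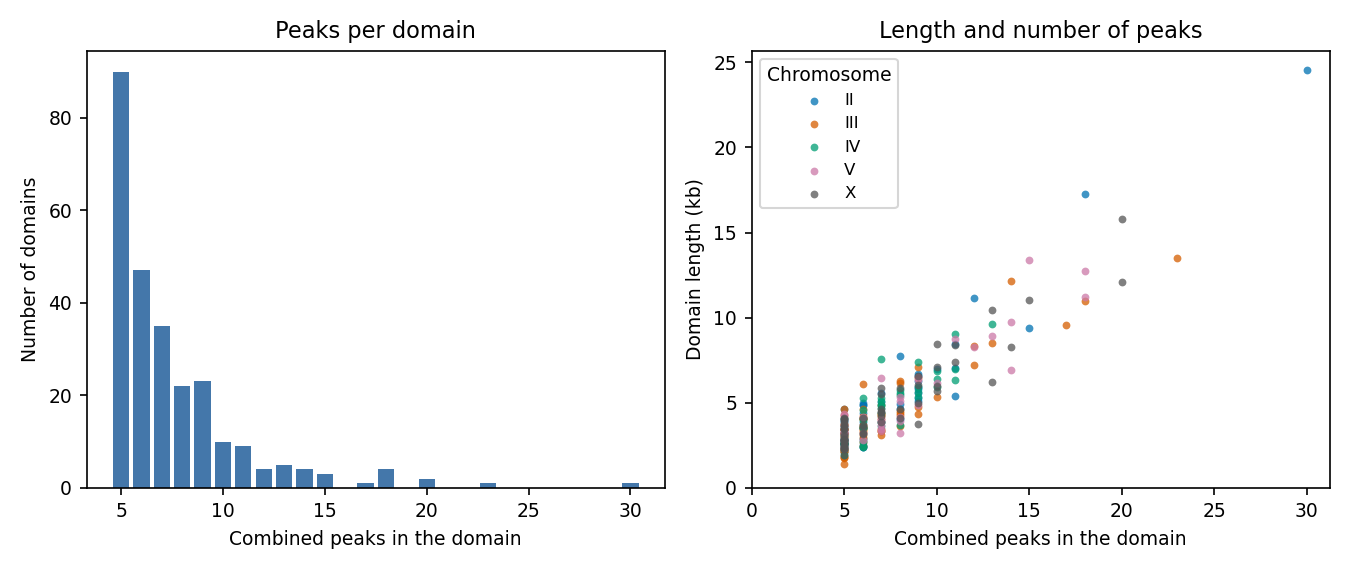
Left, number of domains (y axis) by the number of combined peaks in the domain (x axis). Right, length of each domain in kb (y axis) against its number of combined peaks (x axis), 1 point per domain, coloured by chromosome. The bar at 5 peaks stands at 90 domains, and the point at the upper right is the domain of 30 peaks and 24.5 kb on II.

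Domains of more peaks were longer, while across domains the share of bases under peaks hardly followed the number of peaks. Across the 261 domains, the number of peaks and the length had a Spearman's rho of 0.85, while the number of peaks and the share of bases under peaks had a rho of 0.07. These are correlations across domains built from 1 peak list. Each further peak adds its own width and a gap to the domain, so a positive correlation of number and length is built in. Domains of 5 peaks had a median length of 2846 bp and a covered share of 57.2% over all their bases. In domains of 10 or more peaks the median length was 8465 bp and the covered share 62.5%, the highest of the size classes. The share was 57.8% in domains of 6 or 7 peaks and 54.9% in those of 8 or 9. From the smallest to the largest class, the median peak width was 257, 253, 251 and 303 bp. The length per peak was 596 bp in the smallest domains, 619.7 bp in those of 6 or 7 peaks, 628 bp in those of 8 or 9 and 689 bp in those of 10 or more.

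Regions just below the minimum looked much like the smallest domains. The 90 domains of 5 peaks had a median covered share of 56.5% (quartiles 46.8 and 67.9%), and the 158 joined regions of 4 peaks one of 60.0% (49.4 and 71.1%). Median scores were 4.03 in the domains of 5 peaks and 3.98 in the regions of 4. The joining distance cut through a continuum as well. Of the 1694 gaps inside domains, 46 were between 900 and 1000 bp, in 43 domains, and 25 domains had a further peak outside at a gap from 1000 to below 1100 bp.

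Inside a domain, combined peaks alternated with short gaps. Peaks covered 58.7% of all domain bases, and the share per domain had a median of 57.5% (quartiles 48.4 and 66.6%). The median gap from the end of a peak to the start of the next was 212 bp (quartiles 121 and 445 bp), and 18.1% of the gaps (16.3 to 20.0%) were under 100 bp. No gap was below 37 bp. Midpoints of neighbouring peaks lay a median of 622 bp apart (446 and 879.9 bp). In the regions of 2 to 4 peaks the median gap was 255 bp and the median distance of midpoints 584 bp. Domain peaks were wider than the rest of the list, with a median of 265 bp (191 and 439 bp) against 229 bp in regions of 2 to 4 and 208 bp for single peaks. Peaks over 1 kb wide made up 4.30% of domain peaks (3.48 to 5.29%), 1.77% of those in regions of 2 to 4 (1.37 to 2.30%) and 0.850% of single peaks (0.562 to 1.28%).

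Strong and weak sites stood side by side. The best peak of a domain scored a median of 7.17 and its weakest 2.22, and the range within a domain had a median of 4.71. Of the 261 domains, 131 held a peak among the best 10% of all combined scores (7.14 or higher), and 49 held such a peak together with one from the lowest 10% (2.10 or lower). A group of 5 or more peaks includes such extremes more readily than 1 peak does. The share to be expected from the number of peaks alone was not worked out, so these counts do not set domains apart. Score hardly followed size. Across domains, the number of peaks had a rho of 0.20 with the best score and of 0.12 with the median score. The 522 outermost peaks scored a median of 3.94 and were a median of 232 bp wide, and the 1433 inner peaks scored 4.26 and were 277 bp wide. In 247 domains 1 peak scored above all others, and it was an outermost one in 63 (25.5%, 20.5 to 31.3%), where outermost peaks made up 26.7% of the peaks in these domains.

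Among the domains with the most peaks, the first lay in the middle part of II from 6820499 to 6845022. Its 30 peaks covered 66.3% of 24524 bp, and its scores ran from 1.78 to 7.94 with a median of 4.0. All 30 were overlapped in both replicates. Replicate 1 had 21 peaks here, covering 72.3% of the domain, and replicate 2 had 23, covering 74.9%. The broadest combined peak, 2360 bp wide, began 12473 bp into the domain, and 1 replicate 1 peak from 6826402 to 6830464 took in 6 combined peaks. The nearest combined peak on the left was 19916 bp away and that on the right 2917 bp.

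The next domain, on III from 7718354 to 7731879, held 23 peaks in 13526 bp and had a lower median score, 3.31. Replicate 1 had 17 peaks in it and replicate 2 had 18, covering 73.7% and 78.3%. On X, the domain from 12170568 to 12186363 (15796 bp, 20 peaks) had a median score of 4.76, and 1 of its peaks, the outermost on the left, lacked a partner in replicate 2. The other X domain of 20 peaks, from 11471108 to 11483197, was more closely packed. Combined peaks covered 74.0% of its 12090 bp. Only 10 peaks of replicate 1 and 8 of replicate 2 lay there, and these covered 85.5% and 87.7%. The combined list thus cut this stretch into more pieces than either replicate did.

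**Figure D2:**
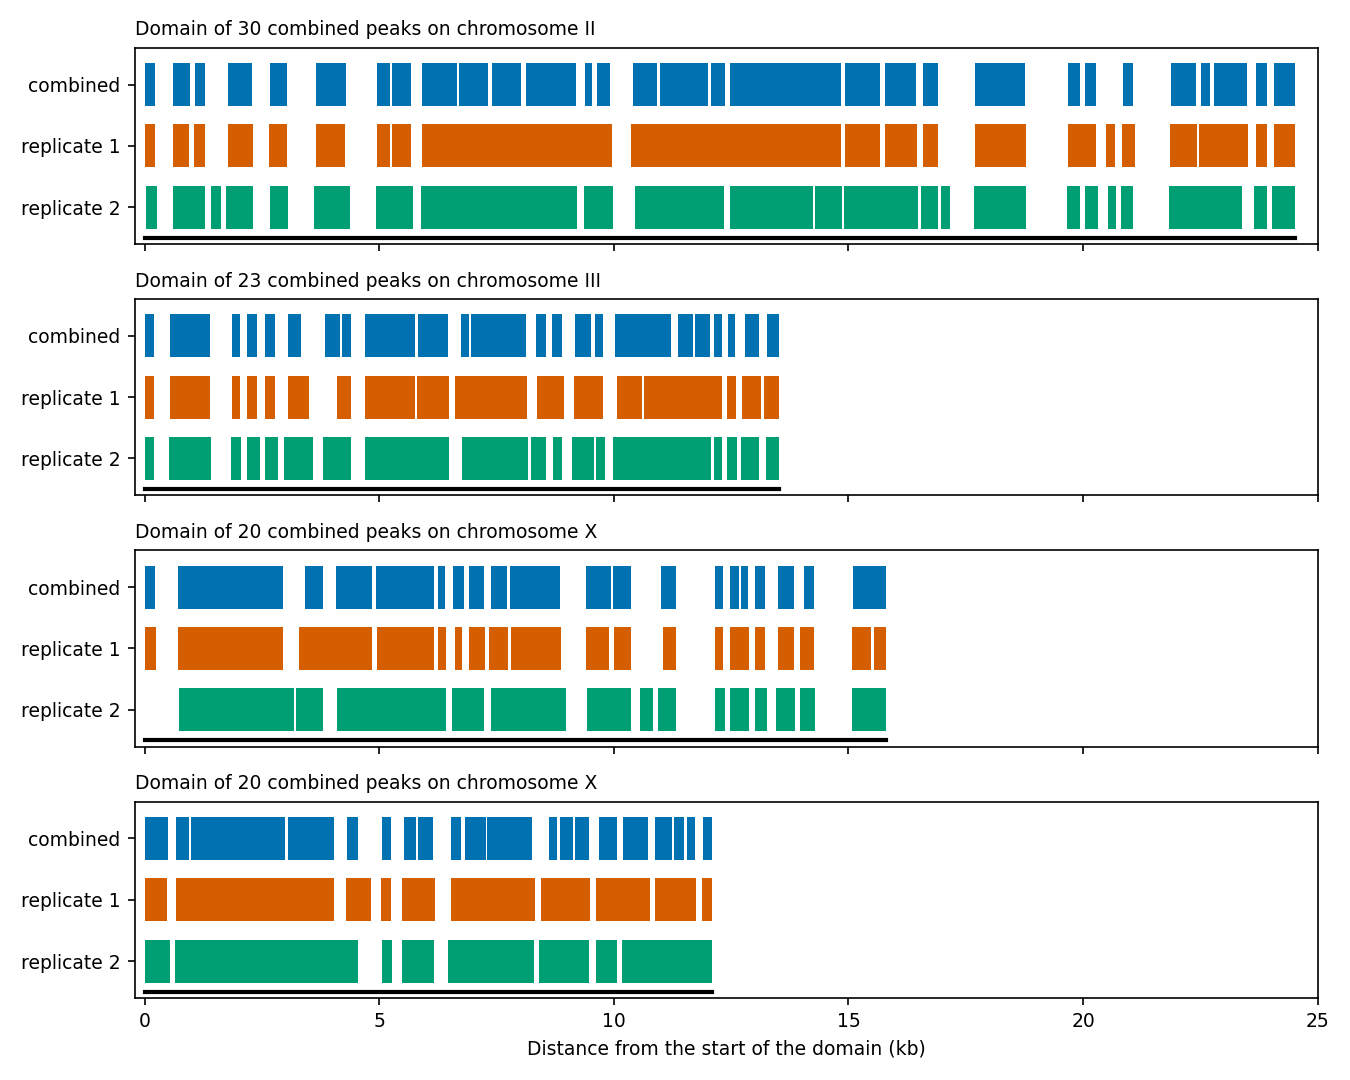
The 4 domains with the most combined peaks, drawn to scale by distance from the start of the domain in kb (x axis). Boxes are peaks of the combined list, replicate 1 and replicate 2, clipped to the domain, and the black line is the extent of the domain. In the domain of 30 peaks on II, replicate 1 has 21 peaks and replicate 2 has 23, and in the lowest panel, on X, the replicates have 10 and 8 peaks where the combined list has 20.

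The other 8 domains complete the 12 with the most peaks. The domain on II from 10542696 to 10559983 was the second longest, with 18 peaks in 17288 bp and a median peak width of 540.5 bp. It was also strong, with a median score of 5.44 and 1 peak at the ceiling. A domain of 18 peaks on V, from 10715346 to 10728065, was weak in the combined list (median score 3.02), and the best overlapping replicate peaks had a median percentile of 84.5 in replicate 1 but of 42.7 in replicate 2. Likewise, the domain on III from 5834771 to 5845775 (18 peaks, median score 2.72) had median percentiles of 61.9 in replicate 1 and 39.9 in replicate 2. By an overlap of at least 1 bp, both replicates nevertheless met all 18 peaks in each of these domains, though with fewer peaks of their own. Replicate 1 had 13 peaks in the V domain and 15 in the III domain, and replicate 2 had 11 and 13. In the V domain, 1 replicate 1 peak lay over 5 combined peaks and 1 replicate 2 peak over 6. The percentile of such a peak enters these medians once for each combined peak under it. The domain on V from 20409111 to 20420321 also held 18 peaks, and 17 of them were found in both replicates. On III, the domain from 1923060 to 1932612 packed 17 peaks into 9553 bp with no gap above 258 bp, and reached the ceiling at 2 of them. Its median percentiles were 93.8 in replicate 1 and 93.4 in replicate 2, but 15 of the 17 peaks were found in both replicates (88.2%), the lowest share among these 12 domains. The last 3 held 15 peaks each, all found in both replicates. They lay on V from 6220860 to 6234273, on X from 4136879 to 4147905 and on II from 5329175 to 5338580. On IV, the domain with the most peaks ran from 16489951 to 16499590 and held 13, fewer than the largest on each of the other chromosomes.

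Peaks at the score ceiling numbered 72 among the 1955 domain peaks (3.68%, 2.93 to 4.61%), against 2.88% of all combined peaks outside chromosome I. They were spread over 55 domains, of which 11 held several. The domain richest in them was not among the largest. On IV, the domain from 2601633 to 2606930 had 7 peaks, 5 of them at the ceiling, and a median percentile of 97.7 in each replicate. On III, the domain from 1936392 to 1940491 had 4 of 6 at the ceiling, and the one from 13060635 to 13072795 had 3 of 14. The domain on III from 2987151 to 2993577 had 2 of 9, and the one from 1923060 to 1932612, described above, 2 of 17. By contrast, none of the 4 domains with 20 or more peaks reached the ceiling at any peak. Some of these lay on X, where 1.01% of all combined peaks were at the ceiling.

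Domains differed widely in how much of their length was under peaks. The most filled lay on V from 1149244 to 1152094, where 5 peaks covered 90.7% of 2851 bp and no gap exceeded 93 bp. Replicate 1 had 3 peaks over it (94.2% of its bases) and replicate 2 had 2 (97.2%). On III, the domain from 8124215 to 8128491 was filled to 86.8%, and on X that from 6735414 to 6745847, with 13 peaks, to 85.5%. At the other end, an X domain from 13166022 to 13169751 was covered to 28.4% by 5 peaks, and replicate 2 split it into 2 regions. Sparse domains were not always weak. The domain on V from 19883777 to 19889916 (10 peaks, 31.1% covered) had a median score of 6.78, and that on III from 1180436 to 1185206 (9 peaks, 33.6%) one of 6.40, and all peaks of both were found in both replicates. The 3 shortest domains were all on III. They started at 1820011, 1506183 and 11089988 and spanned 1372, 1781 and 1832 bp.

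By an overlap of any length, nearly all domain peaks were found in both replicates, but the order of the peak classes depended on the rule of overlap. An overlap of at least 1 bp with both lists was seen for 1851 of 1955 domain peaks (94.7%, 93.6 to 95.6%), for 91.1% of the peaks in regions of 2 to 4 (90.1 to 92.1%) and for 86.7% of single peaks (85.3 to 87.9%), against 90.5% of all combined peaks outside chromosome I. The classes differed mainly in replicate 2, which overlapped 95.6% of domain peaks (94.6 to 96.4%), 92.2% of those in regions of 2 to 4 and 87.1% of single peaks, with 91.3% over all of them. Replicate 1 overlapped 99.1%, 98.9% and 99.6% in the same order, with 99.2% over all. Wider peaks meet another list more easily, and domain peaks were wider, so these values move together and the part of width was not tested. Under a stricter rule, in which the overlap took in 50% or more of each peak of a pair, the order turned round. It was then met in both replicates by 56.6% of domain peaks (54.4 to 58.8%), 64.5% of peaks in regions of 2 to 4 (62.8 to 66.1%) and 78.0% of single peaks (76.4 to 79.6%), against 67.0% of all combined peaks. With midpoints within 500 bp in place of an overlap, the shares were 89.1% of domain peaks (87.6 to 90.4%), 92.7% (91.8 to 93.6%) and 87.0% (85.6 to 88.2%), against 89.9% of all. Unless stated otherwise, an overlap of at least 1 bp is meant by found in both replicates.

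**Figure D3:**
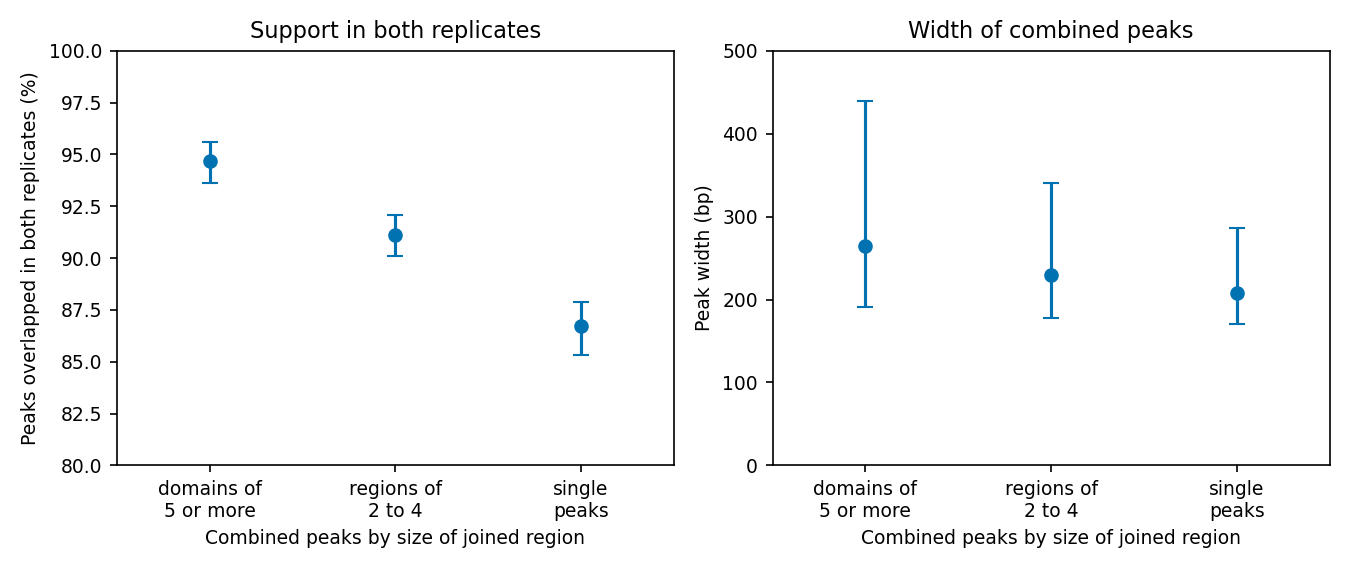
Left, share of combined peaks overlapped by at least 1 bp in both replicates in percent (y axis, drawn from 80 to 100), with 95% Wilson intervals. Right, median width of combined peaks in bp (y axis) with bars from the lower to the upper quartile. Peaks are classed by the size of their joined region (x axis), and both measures are highest for domain peaks, at 94.7% and 265 bp, and lowest for single peaks, at 86.7% and 208 bp.

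Of the 104 domain peaks not found in both replicates, 86 were overlapped in replicate 1 alone and 18 in replicate 2 alone. No domain peak lacked a partner in both (0 of 1955, which allows a share of up to 0.153%), and this held for all 7641 combined peaks outside chromosome I. The combined list was made from the same samples in a way not stated. The count of 0 may therefore be given in advance and does not set domains apart. The 104 were narrow and weak, with medians of 167 bp in width and 2.97 in score, against 274 bp and 4.26 for the 1851. They were scattered: 174 domains (66.7%, 60.7 to 72.1%) had every peak in both replicates, 73 missed 1 and 14 missed more. Of these 14 domains, 10 lay in the left of 3 equal parts of their chromosome, 6 were on III and 5 on IV. In the left parts, replicate 2 overlapped 91.9% of domain peaks (89.6 to 93.7%), against 98.5% in the middle (97.4 to 99.2%) and 96.2% on the right (94.2 to 97.5%), while replicate 1 overlapped 99.4%, 98.4% and 99.6%. Of all combined peaks, replicate 2 overlapped 88.7% on the left, 95.8% in the middle and 89.6% on the right. There the left share was low too, but the right share was about as low, unlike among domain peaks. The left parts held 93 of the 261 domains, III held 67 and IV 48. The lowest share in both replicates was 3 of 5 peaks, on II from 1088420 to 1090786 and on IV from 2052171 to 2055064 and from 16167945 to 16171057. It was 6 of 9 on IV from 2384053 to 2389675 and 4 of 6 on III from 1216990 to 1219927. In each of these 5 domains all peaks were overlapped in replicate 1.

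The peaks of the replicates filled the domains somewhat more than the combined peaks did. Replicate 1 peaks covered 68.2% of domain bases and replicate 2 peaks 66.3%, against 58.7% for combined peaks. Per domain, the median was 68.6% in replicate 1 (range 33.6 to 100.0%) and 64.6% in replicate 2 (22.1 to 97.2%). Replicate 1 covered more of the domain in 140 cases and replicate 2 in 121. The difference, replicate 1 minus replicate 2, had a median of 0.996 percentage points and quartiles of -4.84 and 9.97. Over the 261 domains the shares in the replicates had a rho of 0.68, and both depend on where the shared domain was drawn. The largest excess of replicate 1 was in the domain on III from 1216990 to 1219927, with 72.6% in replicate 1 and 38.7% in replicate 2. The opposite was seen on III from 6603118 to 6606347, with 52.5% in replicate 1 and 80.2% in replicate 2. In the left parts of the chromosomes replicate 1 covered 68.0% and replicate 2 60.6% of domain bases, in the middle parts 68.5% and 71.5%, and in the right parts 68.1% and 66.1%.

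Replicate peaks often ran across gaps of the combined list. One replicate 1 peak met both neighbours of 332 of the 1694 gaps inside domains (19.6%, 17.8 to 21.6%), and 1 replicate 2 peak met both neighbours of 346 (20.4%, 18.6 to 22.4%). In both replicates this held for 187 gaps (11.0%, 9.63 to 12.6%), against 7.41% (6.31 to 8.69%) in regions of 2 to 4 peaks. Narrow gaps were bridged most. Below 100 bp, 65.4% of gaps were bridged in replicate 1 and 70.3% in replicate 2, and from 500 to below 1000 bp only 1.14% and 0.570%. In the domains, 264 of 1733 replicate 1 peaks (15.2%) and 259 of 1626 replicate 2 peaks (15.9%) each overlapped several combined peaks. The most under 1 peak was 6, in replicate 1 on II from 6826402 to 6830464, and in replicate 2 on V from 10721254 to 10724223 and on III from 3618913 to 3621550. A single replicate 1 peak from 6566934 to 6573284, 6351 bp wide, covered a whole domain of 5 peaks on III. In the other direction, 102 replicate 1 peaks (5.89%) and 77 replicate 2 peaks (4.74%) inside domains met no combined peak. Their median percentiles were 43.7 in replicate 1 and 24.4 in replicate 2, against 74.3 and 66.1 for all replicate peaks in domains.

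**Figure D4:**
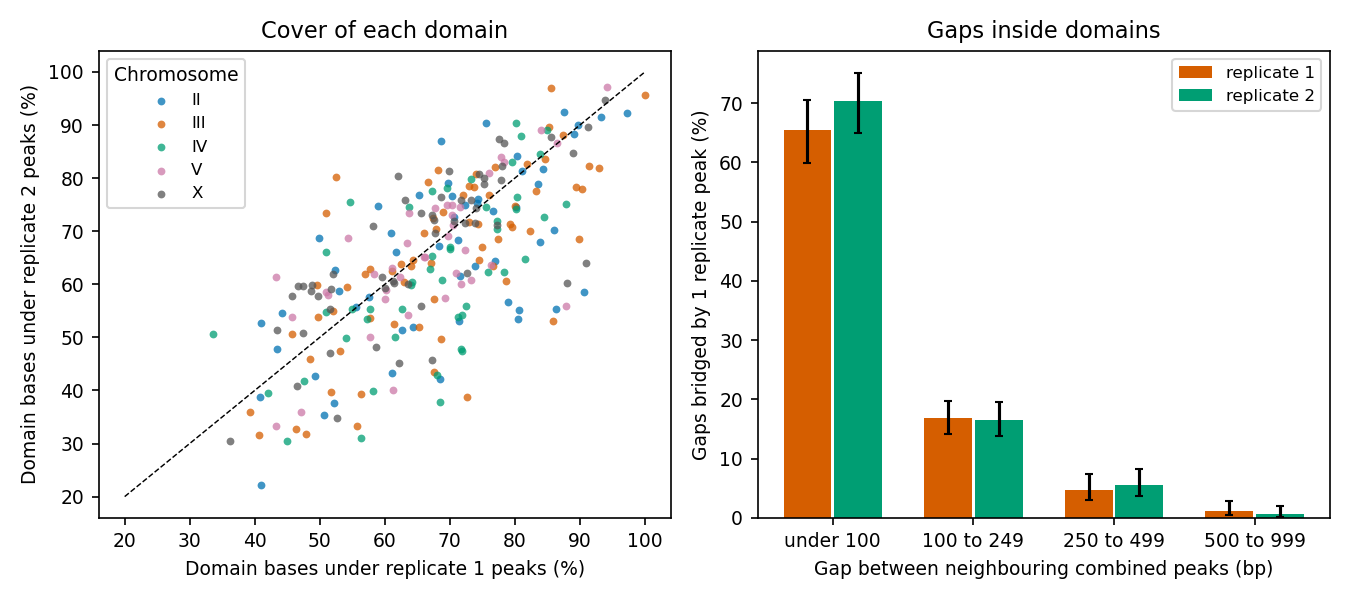
Left, share of the bases of each domain under replicate 2 peaks (y axis, percent) against that under replicate 1 peaks (x axis, percent), 1 point per domain, coloured by chromosome, with the line of equality dashed; 140 of 261 points lie below the line. Right, share of gaps inside domains whose neighbours meet 1 and the same replicate peak (y axis, percent, with 95% Wilson intervals) by gap length in bp (x axis), which is 65.4% and 70.3% for gaps under 100 bp and 1.14% and 0.570% for the longest.

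Applied to each replicate list on its own, the same rule gave 537 domains in replicate 1 and 294 in replicate 2. They held 30.5% of replicate 1 peaks and 25.9% of replicate 2 peaks, and their median lengths were 4261 and 4087 bp. Of the 261 combined domains, 236 (90.4%, 86.2 to 93.4%) overlapped a domain of the replicate 1 list, 199 (76.2%, 70.7 to 81.0%) one of the replicate 2 list and 190 (72.8%) one of both, and 16 met neither. Seen from the replicates, 232 of the 537 replicate 1 domains (43.2%) and 195 of the 294 replicate 2 domains (66.3%) overlapped a combined domain. Combined domains without a counterpart were mostly small, and replicate peaks still covered much of them. The 25 without a replicate 1 domain had at most 6 combined peaks and a median of 4 replicate 1 peaks, which covered a median of 71.8%. The 62 without a replicate 2 domain had a median of 5 and at most 12 combined peaks, a median of 4 replicate 2 peaks, and a median of 61.3% of their bases covered. Breaks were rare, since replicate 1 split 5 of the 261 domains into several joined regions and replicate 2 split 18.

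Domains were found on each of the 5 chromosomes. Chromosome III held 67 (4.87 per Mb), II 53 (3.47), X 54 (3.05), IV 48 (2.75) and V 39 (1.87 per Mb). III thus had 25.7% of the domains and 22.0% of the combined peaks, while X had 20.7% and 23.3% and V 14.9% and 18.1%. The share of a chromosome's combined peaks that lay in domains was 28.6% on III (26.5 to 30.8%), 27.8% on II (25.6 to 30.2%), 25.2% on IV (23.0 to 27.6%), 23.1% on V (21.0 to 25.4%) and 23.1% on X (21.2 to 25.1%). The intervals of III and II lay above those of V and X, and that of IV met all 4 others. Peaks enter domains in groups of 5 or more, so these intervals are too narrow to rank the chromosomes. III was also the densest in domains of replicate 1 (9.80 per Mb) and of replicate 2 (4.94 per Mb), and V the sparsest (4.50 and 2.44 per Mb). By share of peaks, however, the order of II and III differed between the replicates: in replicate 1 it was 34.5% on III and 33.0% on II, in replicate 2 it was 26.8% on III and 28.9% on II. The covered share was alike on the 5 chromosomes, from 57.1% on IV to 59.7% on X. Domains were shortest on III, with a median of 3629 bp, and had medians of 4042 to 4129 bp on the other chromosomes. Peaks at the ceiling were uneven, with 31 of the 72 in domains of III and 5 in those of X, and the whole list was uneven in the same way. They made up 6.43% of domain peaks and 4.51% of all combined peaks on III, and 1.22% and 1.01% on X.

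**Figure D5:**
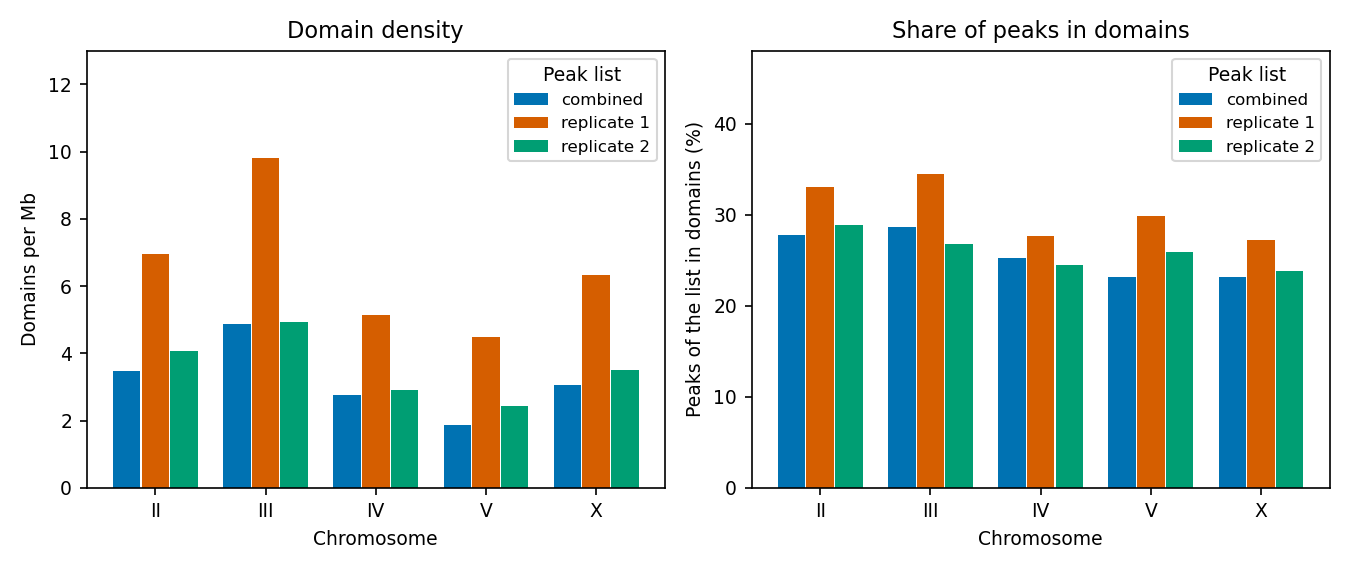
Left, domains per Mb of chromosome (y axis) by chromosome (x axis) when the joining rule was applied to the combined, replicate 1 and replicate 2 lists. Right, percent of the peaks of each list that lay in its own domains (y axis). III has the tallest bars on the left in each list, at 4.87, 9.80 and 4.94 domains per Mb, and V the shortest, at 1.87, 4.50 and 2.44.

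Along the chromosomes, 93 domains had their midpoint in the left of 3 equal parts, 90 in the middle and 78 on the right. On III the left part held 32 of 67 (47.8%) and on IV 23 of 48 (47.9%), close to its 45.7% and 45.1% of all combined peaks. The share of combined peaks in domains was 29.6%, 28.6% and 26.8% from left to right on III, and 26.8%, 25.4% and 22.0% on IV. On III the replicates differed, with 40.3%, 32.1% and 27.4% in replicate 1 but 24.5%, 29.0% and 27.9% in replicate 2. On IV the left part was highest in both, with 33.5%, 22.5% and 22.5% in replicate 1 and 30.4%, 23.1% and 15.6% in replicate 2. Relative to all combined peaks there, domains took a larger share of the middle part on II (34.6%, against 22.5% on the left and 25.3% on the right) on X (30.3%, against 18.1% and 21.0%) and on V (26.1%, against 20.9% and 21.5%). In replicate 2 the middle part of these chromosomes was likewise highest. It had 36.4% on II, against 19.8% on the left and 27.8% on the right, and 28.4% on X, against 20.7% and 22.3%. On V it had 28.8%, against 19.8% on the left but 27.2% on the right. In replicate 1 it was not, with 33.5% in the middle and 37.5% on the left of II, 27.2% in the middle and 27.8% on the right of X, and 26.1% in the middle and 32.8% on the right of V. The excess in the middle was thus seen in the combined and replicate 2 lists, not in replicate 1, and on V in replicate 2 it was slight against the right part.

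Distances between neighbouring domains ranged over 3 orders of magnitude, measured from the end of one to the start of the next. The median was 211 kb (quartiles 60.8 and 413 kb, n = 256 distances). By chromosome the median was 139 kb on III, 157 kb on II, 179 kb on IV, 241 kb on X and 336 kb on V. Domains came close in places, with 21 distances under 10 kb and 81 under 100 kb, and 13 exceeded 1 Mb. The closest pair was on X, where a domain of 10 peaks from 11461582 to 11470059 ended 1049 bp before the domain of 20 peaks described above. Each replicate had 1 peak wholly between them. A second pair on X was 1137 bp apart, the domain of 13 peaks from 6735414 and one of 7 peaks that ended at 6751636. On II, a domain of 9 peaks that started at 7883984 and one of 8 peaks that ended at 7896363 were 1183 bp apart, with no replicate peak lying wholly between them. Both were weak, with median scores of 2.15 and 2.92.

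Most domains had another LET-418 peak within a few kb. The nearest combined peak outside lay a median of 2059 bp away (quartiles 1330 and 4423 bp), and within 2000 bp for 124 of 261. The joining rule makes 1000 bp the least possible distance. The same measure is not given for smaller regions or single peaks, so it does not set domains apart. The most isolated was a domain of 7 peaks on V from 6656690 to 6660017, with 68782 bp to the nearest peak. The longest stretches between neighbouring domains were also on V. One of 3225 kb, from 2618868 to 5843500, held 138 combined peaks, and one of 2875 kb, from 15664358 to 18539797, held 73. These stretches held 42.8 and 25.4 combined peaks per Mb, against 66.1 per Mb over the whole of V and 89.8 per Mb over the 5 chromosomes. A stretch between neighbouring domains holds no domain peaks by definition, while the wider values include them. Part of this difference is therefore built in.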

How the data were processed

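ChIP-seq peak lists of LET-418 in L3 larvae were analysed. Reads were aligned with BWA to ce10, per the submitters' processing notes, and peaks were called with MACS on WormBase WS220, per the file headers. Not given in the sources used here were versions, thresholds, the use of the input and the way the replicates were combined. The deposited lists hold a position and a peak score by the authors on an unstated scale, with no read counts, so depth and the precision it gives are unknown.

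Peaks on chromosome I were left out. Combined peaks were joined at gaps below 1000 bp and regions of at least 5 kept. Lists were compared by overlaps of at least 1 bp. Score percentiles are ranks within each list, taken for a combined peak from the best overlapping replicate peak. Shares have 95% Wilson intervals and the limit for a count of 0 is 3 counts, both for counting error only. Named domains are the 12 with the most peaks, the first of each chromosome, the 3 longest, shortest, most and least covered, the 3 closest pairs, the 5 with most ceiling peaks and the 5 with the lowest share in both replicates. Others, such as the largest differences between replicates, were picked after their values were seen. The members and lists were chosen with earlier results of these data known. No annotation or genome of WS220 was used, so no genes or sequences are given. The joining and overlap code was tested on simulated lists. The code ran under Python 3.11.15 with pandas 2.3.3, NumPy 2.4.6 and SciPy 1.17.1, and figures were drawn with matplotlib 3.10.9.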

Additional observations from a re-analysis of the deposited data

How the results depend on the processing

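The number of domains, 261, was 354 with joining below 2000 bp, 294 without replicate 1, 225 for combined peaks found in both replicates and 240 for the best replicate 1 peaks in the number replicate 2 has. These last 2 settings were chosen after seeing the data. The number was 165 with joining below 500 bp, 419 with at least 4 peaks, 171 with at least 6, 72 for peaks that score no lower than the median and 537 without replicate 2. Without 1 replicate, the list of the other took the place of the combined list. A higher minimum of peaks gives fewer domains by construction. Within the combined list, fewer peaks or a shorter joining distance also gave fewer here, though either can split 1 domain into several. Replicate 1 has the longer list. List length alone did not set the number, which was 294 for replicate 2 and 240 for as many of the best replicate 1 peaks. In the order 500 bp, 2000 bp, at least 4 peaks, at least 6 peaks, the share of peaks in domains was 14.1%, 37.2%, 33.9% and 19.7%, and the median length 3184, 5178, 3170 and 4888 bp. That share was 11.5% for peaks no lower than the median score, 20.8% for the best replicate 1 peaks, and 25.9 to 30.5% without 1 replicate. The median length was 4460 bp for the best replicate 1 peaks and 4087 to 4261 bp without 1 replicate. The covered share was 71.8% below 500 bp, 46.1% below 2000 bp and 57.7 to 63.6% without 1 replicate. The share of domain peaks found in both replicates was 96.4% below 500 bp, 98.2% for peaks no lower than the median score, 89.1% with midpoints within 500 bp and 56.6% with 50% reciprocal overlap. The difference of domain peaks minus single peaks in that share, 8.02 percentage points, was 2.75 for peaks no lower than the median score, 2.13 with midpoints within 500 bp and -21.5 with 50% reciprocal overlap. Domain peaks minus peaks of smaller joined regions gave 3.55, and in the same settings 1.73, -3.63 and -7.90. Both differences were added after seeing the data, and the cause of the turn was not tested. The other settings stayed within the replicate SD or the counting interval. The replicate SD is that of only 2 values, from the rule applied to each replicate's own list. As these lists differ in length, it does not measure the spread of the combined result. No paired analysis was possible because the peak lists used here come from 1 group. Depth is unknown, so the gap between 537 and 294 domains cannot be told apart from a difference in depth.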

Other observations

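Dense runs that appear only when a replicate list is read on its own were less strong than those shared with the combined list. The 305 replicate 1 domains that met no combined domain had a median of 6 replicate 1 peaks and 3666 bp, and 49.8% of their peaks (47.6 to 52.0%) overlapped a combined peak. In the 232 that met one, the medians were 8 peaks and 5739.5 bp, and 79.0% of the peaks (77.2 to 80.7%) did. The median percentile within replicate 1 was 50.2 for peaks of the 305 and 68.0 for those of the 232. The combined list held a median of 3 peaks inside the 305. In replicate 2, the 99 domains that met no combined domain had 63.9% of their peaks overlapped by combined peaks (59.9 to 67.7%) and a median percentile of 36.3, against 87.3% (85.6 to 88.9%) and 62.4 for the other 195. Whether a replicate domain met a combined one depends on the same peaks, so this is a description.

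Where domains came within 10 kb of each other, no more than 2 lay in a row. Such distances were 21 of 256. The number of longer runs to be expected was not worked out, so this does not set domains apart. The smallest distances, down to 1.05 kb, lay just past the joining distance, so these pairs depend on where it was set. The pairs with the most peaks in all were on X from 11461582 to 11483197 (30 peaks in 21.6 kb), on III from 1923060 to 1940491 (23 peaks in 17.4 kb) and on V from 20409111 to 20424768 (23 peaks in 15.7 kb).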
